A study of Mus musculus with 10 samples.

Results

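Solute carriers are membrane proteins that move amino acids, sugars, nucleosides, vitamins, metals and inorganic ions across the plasma membrane and the membranes of organelles. The genes described here are the solute carrier genes with a substantial count in microglia, the resident macrophages of the brain. They were chosen by their summed counts: the genes of the raw-count table whose symbol begins with Slc or Slco and a number and whose counts add up to at least 1000 over the 10 libraries. The table listed 393 such symbols, of which 59 had no count, 178 had some counts below the minimum, and 156 reached it. Of 10 genes set aside by name (Slc2a1, Slc2a5, Slc3a2, Slc7a2, Slc7a5, Slc7a11, Slc11a1, Slc11a2, Slc16a3 and Slc40a1), 7 were among those 156, which left 149 members out of 40789 genes. The members were sorted into 13 groups by the main substrate of their family, and 4 of them (Slc9a3r1, Slc4a1ap, Slc7a6os and the pseudogene Slc2a4rg-ps) carry such a symbol without being transporters.

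The study sorted microglia from the cortex of 10 female C57BL6/J mice aged 2 to 3 months, 5 given 4 mg/kg lipopolysaccharide (LPS, a component of the outer membrane of bacteria that triggers inflammation) into the peritoneum and 5 given saline, and collected the cells 24 hours later. Every mouse, controls included, was CX3CR1+/egfp: 1 copy of the fractalkine receptor gene carries green fluorescent protein, and all have 1 working copy of the receptor. Cells were gated on high green fluorescence alone, so any other cell with an active Cx3cr1 promoter could enter the gate. Each library came from 1 mouse, and spread between libraries is therefore spread between mice.

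As background, microglia use solute carriers to feed amino acids into protein synthesis, to load and unload the lysosome, to hold cell volume and pH, and to keep zinc, copper and iron away from or within reach of pathogens. In macrophages, exposure to bacterial products is known to change the uptake of glucose, amino acids and metals. Transport activity also depends on protein, partner subunits and location in the cell, none of which RNA counts measure.

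Total counts were 11577295 to 15274421 per library in saline and 12928007 to 15332121 per library in LPS, and their means did not differ beyond the spread (p = 0.841, exact permutation test, two-sided, 5 against 5). The members held 1.42% ± 0.106 (SD, n = 5) of a saline library's counts and 1.25% ± 0.0839 (SD, n = 5) of an LPS library's. On the first principal component of the log2 levels, which held 75.9% of the variance, the groups lay apart. LPS replicate 4 stood apart from the other LPS libraries on the second, which held 9.58%, and it had the largest median deviation from its group (0.29 on the log2 scale). The 10 microglial markers, each detected, summed to 54157 to 61680 CPM (counts put on a common library size by TMM scaling) in saline and 17173 to 30749 in LPS, with 6 lower, 1 higher and 3 not called. Monocyte markers summed to 14.4 to 23.2 CPM in saline and 78.2 to 219 in LPS (3 of 10 higher, 2 lower, with Ms4a4c and Fn1 holding most of the LPS sum and Ccr2 lower), and markers of border-associated macrophages to 616 to 894 and 814 to 2090 CPM (5 of 10 higher, 2 not called). Stab1 held most of the latter sum (690.1 ± 111 CPM in saline and 1061 ± 452 in LPS), Mrc1 was not called, and Cd163, Lyve1 and Pf4 had too few counts to be tested. Neutrophil markers without Csf3r, which microglia express, summed to 0.162 to 1.05 and 1.92 to 32.1 CPM, with Mpo and Elane at 0 in every library and Cxcr2 the 1 gene tested (higher). Endothelial markers went the other way, from 53.1 to 79.3 CPM in saline to 6.65 to 12.3 in LPS, with Cldn5 and Emcn at 0 in every library. Pecam1 held most of that sum (54.1 ± 10.3 CPM in saline and 7.05 ± 2.38 in LPS), and it and Kdr were the 2 of 10 tested, both lower. Of 10 astrocyte, 10 neuron and 10 oligodendrocyte markers, 5, 1 and 5 had enough counts to be tested, and none of these was called. The part of these other cells in the results that follow was not tested, and in bulk samples a smaller number of cells of a type cannot be told apart from less RNA per cell.

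Because the sum of counts chose the members, their presence and level are a description. The members just inside the minimum were Slc25a40 with 1023 counts, Slc22a5 with 1064 and Slc39a3 with 1173. Just outside were Slc15a2 with 996 counts (160 in saline and 836 in LPS), Slc25a13 with 984 and Slc30a1 with 842. A sum over both groups can be reached through 1 group alone. Of the members, 140 had at least 500 counts in each group, 4 (Slc1a5, Slc10a6, Slc2a6 and Slc2a3) fell short of 500 in saline, and 5 (Slc22a5, Slc18b1, Slc30a4, Slc25a40 and Slc5a3) in LPS. All 149 passed the filter on low counts and were tested.

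Levels differed widely between the carriers. Compared per length, on the RPKM scale (reads scaled to gene length and library size), the mean over the 10 libraries ran from 0.817 for Slc5a3 to 343.6 for Slc25a5, with a median of 9.59. The mean was at least 100 RPKM for 11 members and under 5 RPKM for 43. The highest were Slc25a5, which exchanges ADP and ATP across the inner mitochondrial membrane (252 ± 53.8 RPKM in saline and 435 ± 87.98 in LPS), Slco2b1, a carrier of organic anions such as steroid sulfates (421 ± 72.3 RPKM in saline and 196 ± 34.6 in LPS), Slc46a1, a proton-coupled folate carrier (287 ± 32.9 RPKM in saline and 269.9 ± 105 in LPS), and the mitochondrial carrier gene Slc25a45 (267 ± 44.9 RPKM in saline and 177 ± 41.4 in LPS). Slc25a4, the sister of Slc25a5, had 158 ± 14.3 RPKM in saline and 229.8 ± 51.3 in LPS, and Slc50a1, a sugar carrier, had 115 ± 15.97 RPKM in saline and 231 ± 44.8 in LPS. Of the 10 members with the highest mean RPKM, 6 rose and 2 fell in LPS. Over tested genes with at least 1000 counts, 26.8% were called higher and 26.5% lower. The calls of Slc25a5 and Slc25a4 ended with each library's trend over gene length taken out (edgeR adjusted p = 0.135 and 0.690).

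**Figure D1:**
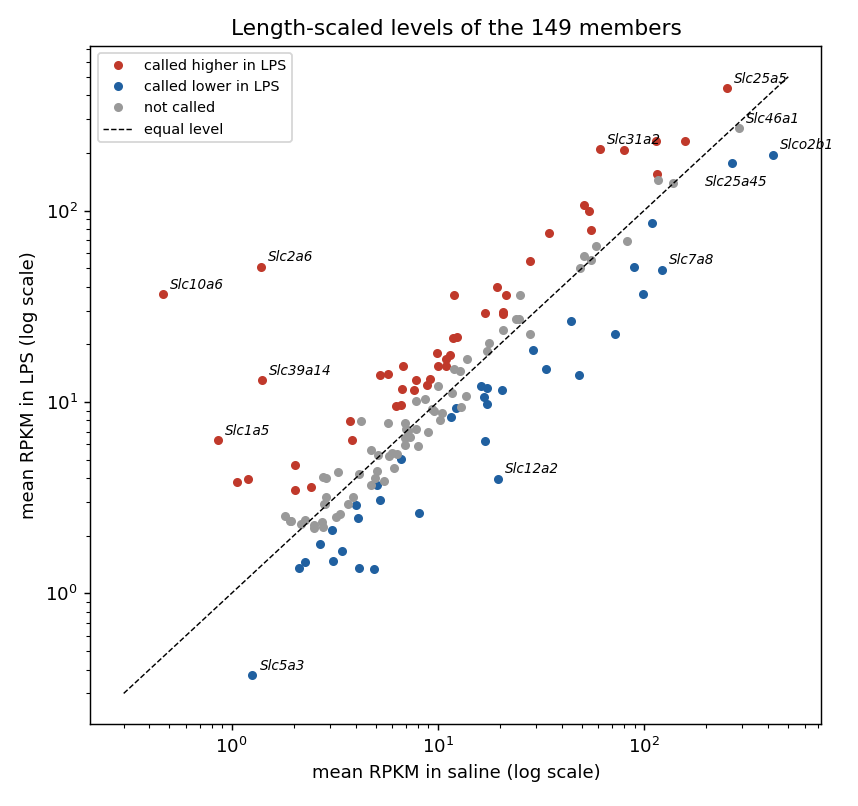
Mean RPKM of each of the 149 members in saline (x axis) and in LPS (y axis), both on log scales, 1 point per gene over 5 libraries a group, coloured by the edgeR call, with the dashed line at equal levels. Slc10a6 and Slc2a6 lie far above the line from a low saline level, and Slco2b1 lies below it at the high end.

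Members changed in both directions. In LPS, 45 members were called higher and 35 lower at an edgeR adjusted p under 0.05, and 69 were not called. Over all 13793 tested genes 22.4% were called higher, 22.5% lower and 44.9% in either direction. Over the 8963 tested genes with at least 1000 counts, which reach the same minimum as the members, the shares were 26.8%, 26.5% and 53.4%, beside 30.2%, 23.5% and 53.7% of the members. The members' shares were thus near those of other genes of like count, and the result lies in which carriers moved. The shares over genes of like count are also the background for the counts of each substrate group below. The change was at least 2-fold for 17 of the higher and 14 of the lower members (background 10.3% and 9.9% of all tested genes, and 9.56% and 8.48% of those with at least 1000 counts). All 5 LPS libraries lay above all 5 saline libraries for 30 members and below them for 26 (background 14.1% and 15.7% of all tested genes, and 17.7% and 18.7% of those with at least 1000 counts). The median log2 fold change of the members was 0.014, against 0.0014 over all tested genes. Of the 80 called members, 51 were called in each of the 20 other fits tried, 30 higher and 21 lower.

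The balance shifted with gene length. With each library's trend over gene length taken out, 55 members were called higher and 25 lower, where 19.2% and 19.0% of 13199 genes were. These genes include many of lower count than the members, and the share over genes of like count was not computed for this fit. The share of higher calls among the called members went from 56.25% to 68.75%. Lower members were longer than higher members, by 1.50 times at the median. In that fit 40 of the 45 higher and 23 of the 35 lower members were still called in the same direction, and the log2 fold change of Slc8a1, Slc25a4 and Slc35e2 changed sign without a call. Members whose call ended in that fit are marked as length-dependent in the text.

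**Figure D2:**
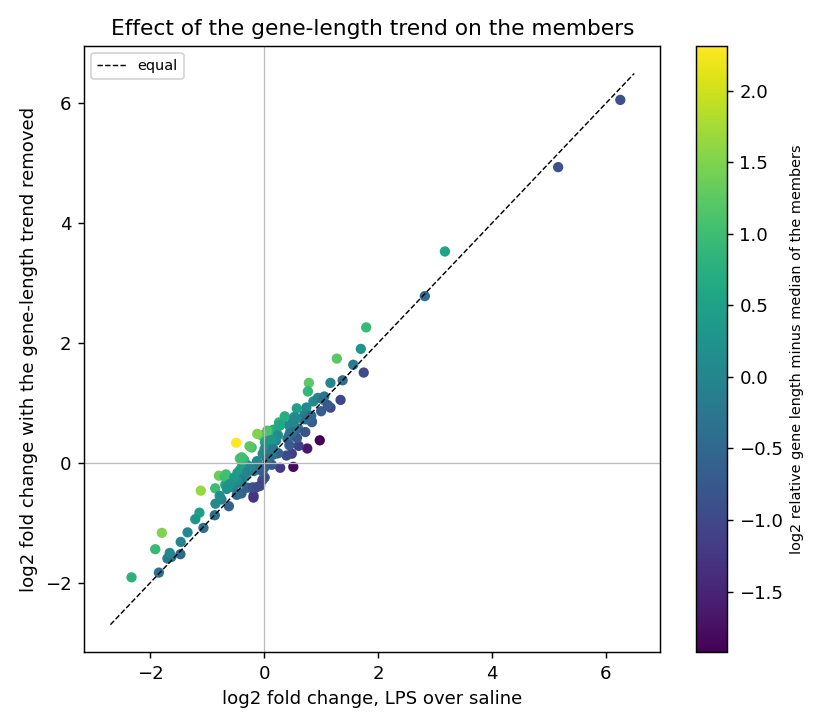
Log2 fold change of each member, LPS over saline, as counted (x axis) and with each library's gene-length trend removed (y axis), coloured by log2 relative gene length against the median of the members. Longer members (yellow) lie above the dashed line of equality and shorter ones (purple) below it, while the largest rises and falls hold their place.

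**Figure D3:**
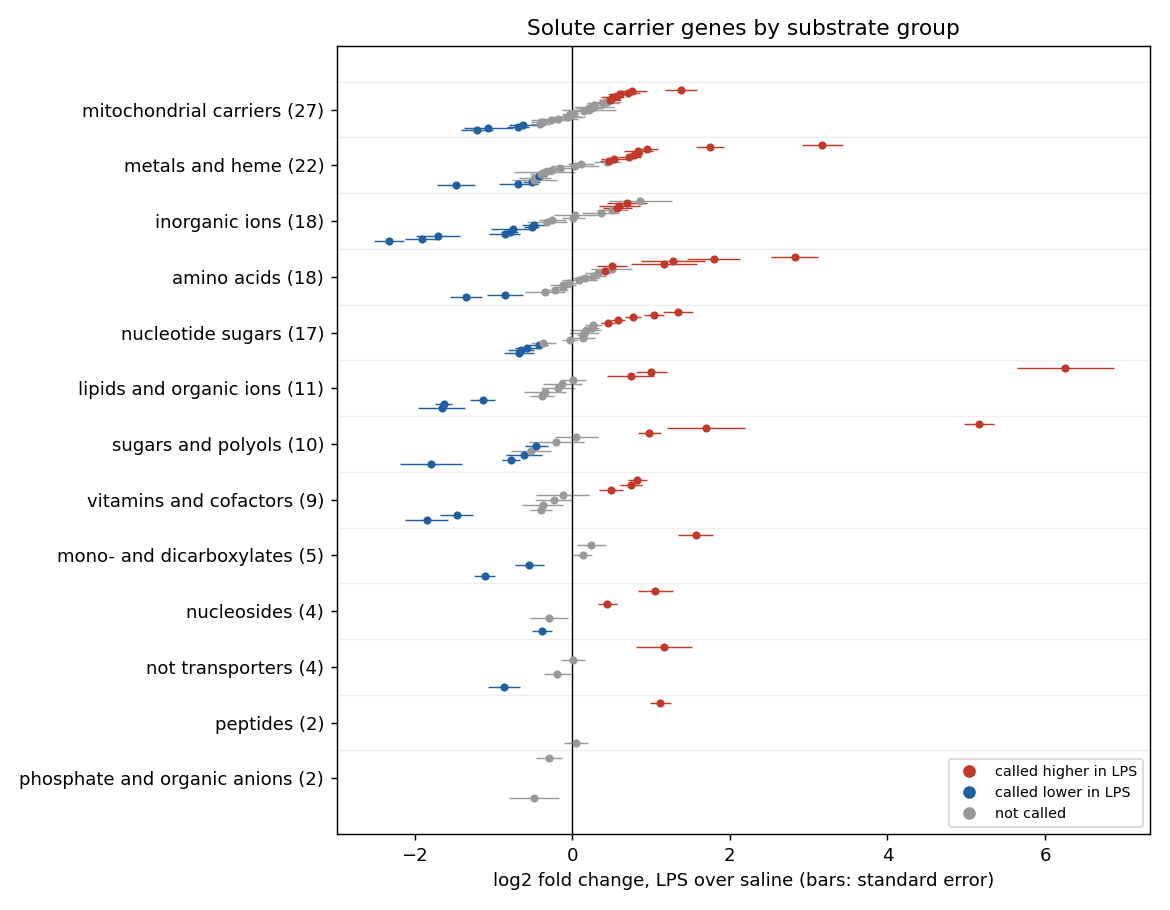
Log2 fold change, LPS over saline, with its standard error for each of the 149 members, in rows by substrate group with the number of members in parentheses, coloured by the edgeR call. Slc10a6 among the carriers of lipids and organic ions and Slc2a6 among the sugar carriers stand far to the right. Most called inorganic ion carriers stand to the left of 0 as counted, with the gene-length trend left in.

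Among 18 amino acid carriers, 6 rose and 2 fell. The rises were in carriers of neutral and cationic amino acids. Slc1a5, a sodium-dependent exchanger that takes up glutamine and other small neutral amino acids (chromosome 7, 16781334 to 16798274 on GRCm38), had 3.95, 1.36, 2.18, 2.93 and 1.92 CPM in the saline libraries and 13.3, 22.8, 13.9, 22.6 and 15.7 CPM in the LPS libraries. The lowest LPS library was several times the highest saline library, and the level rose 7.07-fold (log2 fold change 2.82 ± 0.30, edgeR adjusted p = 2.88e-06). Slc7a1, the main uptake route for arginine and lysine in many cells (chromosome 5, 148327410 to 148399904), had 5.80, 7.04, 9.86, 11.5 and 5.70 CPM in saline and 21.9, 53.2, 22.5, 20.7 and 20.2 CPM in LPS. LPS replicate 2 was far above the other LPS libraries, which lay close together and still above every saline library. The rise was 3.46-fold (edgeR adjusted p = 0.000291) and 2.67-fold without that mouse. Slc7a7, an exporter of cationic amino acids and the member of this group with the highest RPKM, had 373, 361, 327, 332 and 324 CPM in saline and 479, 513, 477, 373 and 439 CPM in LPS, and rose 1.33-fold (edgeR adjusted p = 0.0172). LPS replicate 4 lay level with the highest saline library, and the call ended when no filter on low counts was used. Slc43a2, which carries large neutral amino acids, and Slc1a4, which carries serine and alanine, rose 2.42-fold and 2.24-fold with overlapping groups (edgeR adjusted p = 0.0130 and 0.0161), and Slc7a6, another exporter of cationic amino acids, 1.42-fold with a call lost in 7 of the 20 other fits. Slc43a2 had 56.6, 68.8, 85.4, 256 and 163 CPM in the LPS libraries, so most of its rise lay in replicates 4 and 5.

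The carriers that fell were Slc7a8 and Slc1a3. Slc7a8, an exchanger of neutral amino acids (chromosome 14, 54722215 to 54781886), had 421, 542, 474, 589 and 465 CPM in saline and 255, 233, 207, 155 and 131 CPM in LPS. All LPS libraries lay below all saline libraries, 2.54-fold lower (log2 fold change -1.34 ± 0.20, edgeR adjusted p = 4.32e-05). Slc1a3, a glutamate carrier best known from astrocytes, had 400.0, 405, 380.4, 353 and 366 CPM in saline and 208, 163, 212, 337 and 133 CPM in LPS. LPS replicate 4 came closest to the saline libraries without reaching them, and the level was 1.81-fold lower (edgeR adjusted p = 0.00319). The astrocyte markers beside it summed to 17.7 to 29.0 CPM in saline and 17.5 to 42.0 CPM in LPS, and none of the 5 that were tested was called. None of the 6 members of the Slc38 family of amino acid carriers was called, with log2 fold changes from -0.22 for Slc38a6 to 0.50 for Slc38a2. The taurine carrier Slc6a6 (132 ± 28.5 CPM, and 148 ± 30.5 CPM after LPS) was not called either (edgeR adjusted p = 0.454). With the length trend removed, Slc38a1, Slc38a2, Slc38a9, Slc38a10, Slc6a6 and Slc16a10 were called higher, which brought the group to 12 higher and 2 lower.

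Of 18 inorganic ion carriers, 8 were called lower (44.4%) and 3 higher (16.7%). Over tested genes with at least 1000 counts, 26.5% were called lower and 26.8% higher. The balance of the group reversed with the length trend removed (4 lower and 6 higher). Slc12a2, which brings sodium, potassium and chloride into cells together and serves volume control, fell most among all 149 members. It had 117, 125, 134, 176 and 117 CPM in the saline libraries and 33.05, 26.5, 23.7, 31.5 and 18.2 CPM in the LPS libraries. Every LPS library was far below every saline library, 5.02-fold on average (log2 fold change -2.33 ± 0.19, edgeR adjusted p = 2.28e-07). Slc9a7 and Slc9a9 exchange sodium or potassium for protons in the trans-Golgi network and in endosomes. Slc9a9 (chromosome 9, 94669557 to 95230453) had 236, 278, 273, 293 and 191 CPM in saline and 120.0, 90.6, 82.99, 46.5 and 51.98 CPM in LPS, and Slc9a7 (chromosome X, 20098851 to 20292035) had 37.7, 35.1, 31.03, 43.9 and 36.2 CPM and 13.1, 12.98, 8.70, 6.78 and 7.36 CPM. For both genes LPS replicates 4 and 5 were the lowest and no LPS library reached the saline range. Slc9a9 was 3.25-fold lower (edgeR adjusted p = 5.24e-05) and Slc9a7 3.76-fold lower (edgeR adjusted p = 5.36e-06).

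Slc9a8, an exchanger of the same family, was not called, with a log2 fold change of -0.26. Slc4a7, a sodium bicarbonate carrier, Slc8a1, the sodium and calcium exchanger of the plasma membrane, and the sulfate carriers Slc26a2 and Slc26a11 fell 1.73-fold, 1.41-fold, 1.43-fold and 1.68-fold. These 4 calls were length-dependent, and the log2 fold change of Slc8a1 went from -0.49 to 0.34 with the length trend removed. The risers were Slc12a9, Slc26a6 and Slc8b1 (a mitochondrial sodium and calcium exchanger), 1.49-fold, 1.62-fold and 1.51-fold. With the length trend removed the group had 6 higher and 4 lower, and its median log2 fold change went from -0.29 to 0.31.

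Of 11 carriers of lipids and organic ions, 3 rose and 3 fell, and these included the largest rise and the most abundant fall among all members. Slc10a6, which takes up sulfated steroids (chromosome 5, 103605711 to 103629403), had 1.12, 0.849, 0.727, 0.811 and 1.50 CPM in saline and 18.5, 27.1, 74.6, 165 and 102 CPM in LPS. Saline libraries sat near 1 CPM, and the LPS libraries, all above them, differed among themselves by almost an order of magnitude, with replicate 4 the highest. The rise was 76.4-fold (log2 fold change 6.26 ± 0.61, edgeR adjusted p = 5.28e-05), and 54.4-fold to 90.8-fold when each mouse was left out. The saline level rested on 70 counts over 5 libraries, against 5444 counts in LPS, through which the gene reached the minimum. Slc22a17, known as a receptor for lipocalin 2 (chromosome 14, 54906727 to 54913132), had 44.9, 45.7, 48.3, 54.7 and 42.8 CPM in saline and 65.3, 73.3, 89.9, 127 and 117 CPM in LPS. The groups did not overlap, and the level was 2.00-fold higher (edgeR adjusted p = 0.000424).

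Slco2b1 (chromosome 7, 99657804 to 99711340) had 2308, 2766, 2024, 2435 and 1739.9 CPM in saline and 873, 929, 1042, 1356 and 928 CPM in LPS. The LPS libraries lay below the saline libraries without overlap, at 2.20-fold lower (log2 fold change -1.14 ± 0.16, edgeR adjusted p = 8.63e-05). On its own it made up 13.7% to 18.7% of all counts of the members in the saline libraries and 6.80% to 10.3% in the LPS libraries. Slc18a2 and Slc18b1 load monoamines and polyamines into vesicles. Slc18a2 had 34.8, 38.4, 31.6, 33.9 and 22.3 CPM in saline and 10.04, 14.7, 9.47, 11.9 and 4.85 CPM in LPS, and Slc18b1 had 12.8, 12.6, 12.1, 15.7 and 15.1 CPM and 4.77, 3.76, 4.04, 4.37 and 5.17 CPM. Both fell without overlap, Slc18a2 3.15-fold (edgeR adjusted p = 9.00e-05) and Slc18b1 3.09-fold (edgeR adjusted p = 9.88e-06), and the 5 LPS libraries of Slc18b1 lay close together. The fatty acid carrier Slc27a1 rose 1.67-fold with overlapping groups (edgeR adjusted p = 0.0363), a call lost in 6 of the 20 other fits. Its relative Slc27a4 was not called (log2 fold change -0.13 ± 0.24).

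**Figure D4:**
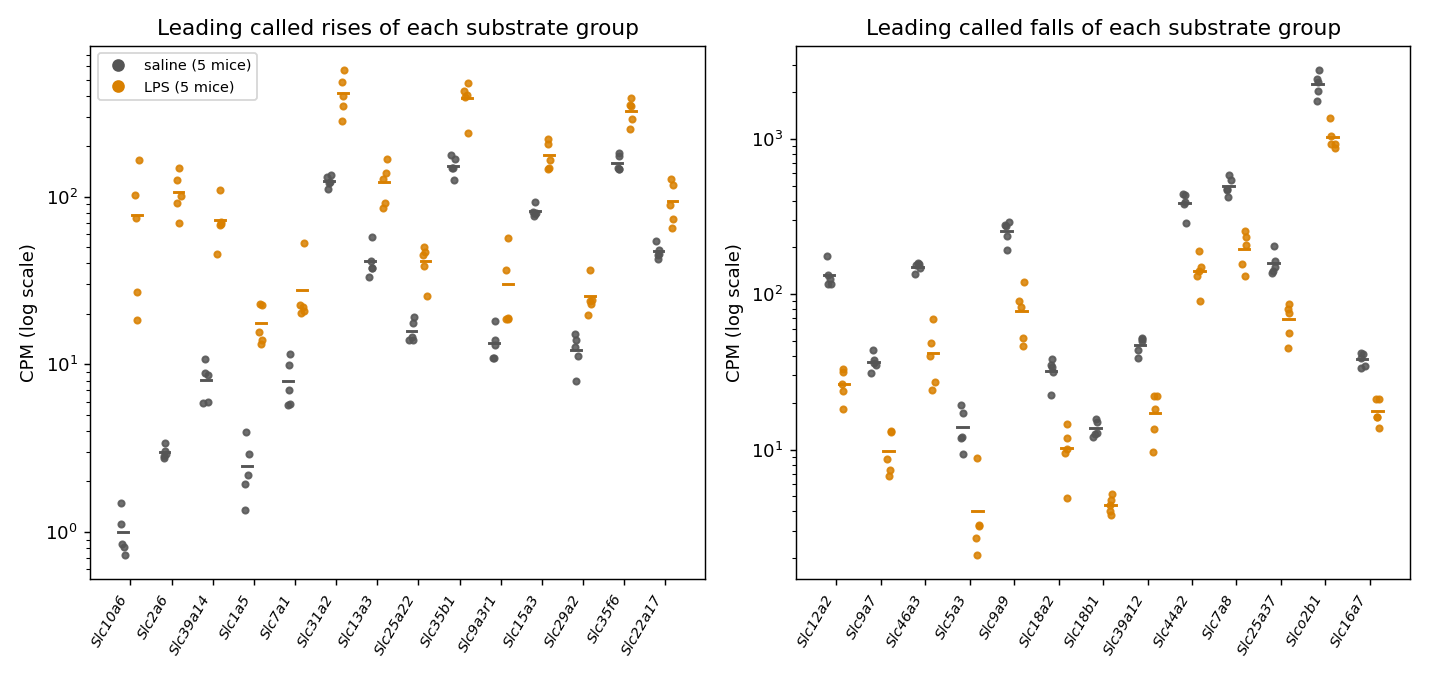
CPM on a log scale of the members with the leading called rises (left) and falls (right) of each substrate group, 1 point per library (5 saline in grey, 5 LPS in orange), with a bar at each group's mean. No LPS point overlaps the saline points of its gene, and Slc10a6 shows the widest spread between LPS libraries.

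Of 22 carriers of metals and heme 9 rose and 4 fell. Slc39a14, which takes up zinc and non-transferrin-bound iron and manganese (chromosome 14, 70303467 to 70351452), had 5.86, 5.94, 10.7, 8.92 and 8.69 CPM in saline and 68.2, 110.3, 70.3, 45.3 and 69.04 CPM in LPS. All LPS libraries lay far above all saline libraries, a 9.03-fold rise (log2 fold change 3.18 ± 0.26, edgeR adjusted p = 2.05e-07). Both copper carriers rose. Slc31a2, which sits on endosomes and lysosomes (chromosome 4, 62280393 to 62298412), had 120.2, 131, 123, 111 and 135 CPM in saline and 283, 349, 402, 569 and 481 CPM in LPS, and Slc31a1, the high-affinity copper importer, had 107, 134, 93.9, 107 and 87.9 CPM and 189, 162, 218, 233 and 217 CPM. For Slc31a2 the LPS libraries spread upward to replicate 4, for Slc31a1 they lay close together, and neither gene had overlapping groups. Slc31a2 rose 3.36-fold (edgeR adjusted p = 2.55e-06) and Slc31a1 1.92-fold (edgeR adjusted p = 0.000145).

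Other zinc carriers went in both directions. Slc39a7, which releases zinc from the endoplasmic reticulum, had 113, 136, 132, 135 and 139 CPM in saline and 223, 231, 242, 254 and 222 CPM in LPS. Both groups were tight and far apart, at 1.79-fold (edgeR adjusted p = 5.43e-05). Slc30a5, Slc30a6 and Slc30a7, which carry zinc into the Golgi and secretory vesicles, rose 1.38-fold, 1.65-fold and 1.73-fold, all with LPS libraries above saline libraries (edgeR adjusted p = 0.0135, 0.00147 and 0.000215). Slc39a1, a zinc importer of the cell surface, rose 1.79-fold and Slc39a11 1.45-fold. The call of Slc39a11 was lost in 8 of the 20 other fits, and that of Slc30a5 when library size alone was used.

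Slc39a12, a zinc importer (chromosome 2, 14388316 to 14494977), fell most in this group, from 44.00, 51.3, 52.4, 50.2 and 39.02 CPM in saline to 9.62, 22.05, 18.2, 21.99 and 13.5 CPM in LPS. The groups did not overlap, and the level was 2.77-fold lower (log2 fold change -1.47 ± 0.24, edgeR adjusted p = 5.96e-05). Slc30a9, Slc30a4 and Slc39a9 fell 1.43-fold, 1.61-fold and 1.34-fold, with Slc30a4 and Slc39a9 length-dependent. Slc39a13, a zinc carrier of the Golgi, was not called (log2 fold change -0.47 ± 0.20, edgeR adjusted p = 0.0504). All 5 zinc exporters of the Slc30 family among the members were called, 3 higher and 2 lower. Of tested genes with at least 1000 counts, 53.4% were called. Slc30a1 of the same family fell short of the minimum, with 415 counts in saline and 427 in LPS. The call of Slc30a4 was lost in 8 of the 20 other fits. The heme carrier Slc48a1 was not called (log2 fold change -0.40 ± 0.14, edgeR adjusted p = 0.0593), nor were the magnesium carriers Slc41a1 and Slc41a3. Of the metal-binding partners, the metallothionein gene Mt1 rose from 65.01, 47.01, 65.9, 41.6 and 46.4 CPM in saline to 114, 56.1, 109.8, 262 and 225 CPM in LPS, 2.89-fold (edgeR adjusted p = 0.00451). LPS replicate 2 overlapped the saline range, and the call was length-dependent (log2 fold change 1.53, and 0.89 with the trend removed, edgeR adjusted p = 0.114). Mt2 rose 17.9-fold from 0.659 ± 0.110 CPM (edgeR adjusted p = 0.00181), with most of its counts in LPS replicates 4 and 5. Mtf1, the zinc-sensing transcription factor, was not called (22.96 ± 2.25 and 24.1 ± 1.45 CPM), nor was Mt3.

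**Figure D5:**
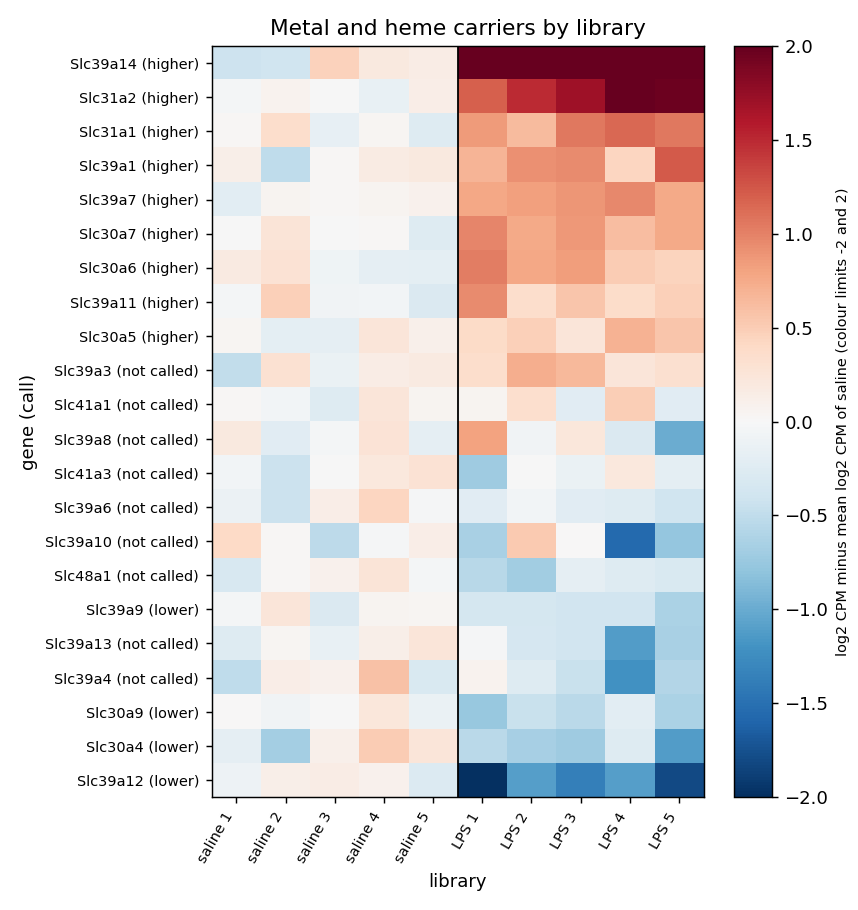
Log2 CPM of the 22 metal and heme carriers (rows, with their call) in each of the 10 libraries (columns), minus the mean log2 CPM of the saline libraries, with colours limited to -2 and 2. Slc39a14 and both copper carriers are red in all 5 LPS libraries, and Slc39a12 is blue in all 5.

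Mitochondrial carriers of the Slc25 family were the largest group, with 27 members, of which 8 rose and 4 fell. Most changes were under 2-fold. Slc25a22, which brings glutamate into the matrix (chromosome 7, 141429749 to 141437874), had 14.6, 19.2, 14.1, 17.6 and 13.9 CPM in saline and 47.02, 44.8, 50.3, 38.8 and 25.5 CPM in LPS. The groups did not overlap, and it was the 1 riser of the group past 2-fold (2.60-fold, log2 fold change 1.38 ± 0.20, edgeR adjusted p = 4.31e-05). Slc25a38, a glycine carrier of heme synthesis, and the dicarboxylate carrier Slc25a10 rose 1.63-fold and 1.48-fold (edgeR adjusted p = 0.00210 and 0.00214).

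The calls of 4 of the risers, Slc25a5, Slc25a4, Slc25a3 and Slc25a20, were length-dependent. Slc25a5 had 399, 275, 321, 229.6 and 349.9 CPM in saline and 561, 438, 559, 424 and 679.5 CPM in LPS. The lowest LPS libraries were only slightly above the highest saline library. Its 1.69-fold rise (edgeR adjusted p = 0.00289) was a log2 fold change of 0.24 with the length trend removed (edgeR adjusted p = 0.135). Slc25a4, Slc25a3, the phosphate carrier, and Slc25a20, the acylcarnitine carrier, rose 1.43-fold, 1.40-fold and 1.52-fold as counted. Their log2 fold changes with the trend removed were -0.07, 0.15 and 0.28, with no call. All 4 are short genes.

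The mitochondrial carriers that fell were Slc25a37, Slc25a40, Slc25a36 and Slc25a45. Slc25a37, an iron importer of mitochondria known as mitoferrin (chromosome 14, 69241848 to 69285544), had 163, 136, 141, 205 and 149.8 CPM in saline and 80.4, 86.9, 75.4, 45.4 and 56.2 CPM in LPS. No LPS library reached the saline range, and the level was 2.31-fold lower (log2 fold change -1.21 ± 0.20, edgeR adjusted p = 0.000106). Its close relative Slc25a28 was not called (19.3 ± 5.34 and 22.3 ± 11.6 CPM, edgeR adjusted p = 0.577). Slc25a40, a glutathione importer of mitochondria, fell 2.09-fold, and Slc25a36, a carrier of pyrimidine nucleotides, fell 1.61-fold with a length-dependent call. Slc25a45 had 615, 852, 728, 583 and 663 CPM in saline and 538, 471, 552, 338 and 342 CPM in LPS. Every LPS library lay below every saline library, by 1.54-fold on average (edgeR adjusted p = 0.00937). The citrate carrier Slc25a1 and the oxoglutarate carrier Slc25a11 were not called (log2 fold changes -0.19 ± 0.25 and -0.03 ± 0.11). Ucp2, a carrier of the same superfamily under another symbol, rose from 486, 614, 599, 453 and 687 CPM in saline to 2036, 1882, 2964, 3873 and 4034 CPM in LPS. All LPS libraries were above all saline libraries, at 5.21-fold (edgeR adjusted p = 1.66e-06).

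Among 5 carriers of mono- and dicarboxylates, 1 rose and 2 fell. Slc13a3, which takes up succinate and other dicarboxylates with sodium (chromosome 2, 165405295 to 165473197), had 33.1, 57.2, 37.8, 41.2 and 37.6 CPM in saline and 85.7, 138, 128, 168 and 92.1 CPM in LPS. The groups did not overlap, and the rise was 2.96-fold (log2 fold change 1.57 ± 0.23, edgeR adjusted p = 2.55e-05). Slc16a7, a high-affinity carrier of lactate and pyruvate, had 34.7, 42.00, 33.6, 38.9 and 41.4 CPM in saline and 16.1, 21.05, 21.04, 13.8 and 16.1 CPM in LPS, and no LPS library reached the saline range. It was 2.16-fold lower (edgeR adjusted p = 6.20e-05), a log2 fold change of -1.11 that became -0.46 with the length trend removed. Slc16a1, another lactate carrier, fell 1.46-fold (edgeR adjusted p = 0.0395), a length-dependent call lost in 11 of the 20 other fits. Slc16a6, the member of this group with the highest RPKM, had 299.8, 294, 283, 277 and 266 CPM in saline and 237, 373, 277, 359 and 310.3 CPM in LPS and was not called (edgeR adjusted p = 0.460).

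These monocarboxylate carriers reach the cell surface with a partner protein. Bsg (basigin), the partner of Slc16a1, rose 1.40-fold from 181 ± 20.3 CPM (edgeR adjusted p = 0.0188), a length-dependent call (edgeR adjusted p = 0.429 with the trend removed). Emb (embigin), the preferred partner of Slc16a7, had 0.329, 0.509, 0.0808, 0.749 and 0.142 CPM in saline and 5.35, 10.8, 14.4, 23.9 and 39.9 CPM in LPS. All LPS libraries lay above all saline libraries, and the 49.8-fold rise (edgeR adjusted p = 2.22e-05) rested on 26 counts in saline and 1277 in LPS.

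Of 10 sugar and polyol carriers, 3 rose and 4 fell. Slc2a6, a member of the glucose carrier family that sits mainly on lysosomes (chromosome 2, 27021363 to 27028000), had 2.83, 3.39, 2.75, 3.06 and 2.92 CPM in saline and 102, 91.9, 148, 70.1 and 126 CPM in LPS. The saline libraries lay within a narrow range and every LPS library was more than an order of magnitude above it. The rise was 35.8-fold (log2 fold change 5.16 ± 0.19, edgeR adjusted p = 6.93e-10). Slc2a3, a high-affinity glucose carrier, had 4.68, 4.16, 5.41, 6.93 and 7.55 CPM in saline and 5.77, 12.6, 13.4, 43.5 and 18.00 CPM in LPS. LPS replicate 1 lay within the saline range and replicate 4 far above the rest. The rise of 3.25-fold (edgeR adjusted p = 0.00648) was 2.16-fold without LPS replicate 4, the 1 member whose fold moved by more than 1.5 times when a mouse was left out. Slc50a1 (chromosome 3, 89268246 to 89270591) had 122, 103, 128, 102 and 137 CPM in saline and 211, 229, 241, 183 and 301 CPM in LPS. The groups did not overlap, and the rise of 1.97-fold (log2 fold change 0.98 ± 0.14, edgeR adjusted p = 0.000130) was a log2 fold change of 0.38 with the length trend removed (edgeR adjusted p = 0.00961).

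The fallers among the sugar and polyol carriers were led by Slc5a3, which takes up myo-inositol with sodium in response to osmotic stress. It had 11.9, 17.1, 11.96, 19.3 and 9.33 CPM in saline and 2.68, 8.83, 3.26, 2.09 and 3.21 CPM in LPS. LPS replicate 2 came just under the lowest saline library and the other 4 lay well below. The level was 3.47-fold lower (log2 fold change -1.80 ± 0.39, edgeR adjusted p = 0.00103). Slc5a3 shares 159 bases of its first exon with Mrps6 on the same strand, so some counts are uncertain. Slc37a2, a sugar phosphate carrier of the endoplasmic reticulum, had 193, 228, 197, 218 and 160.3 CPM in saline and 119, 126, 125, 115 and 95.03 CPM in LPS. It fell 1.72-fold without overlap (edgeR adjusted p = 0.000325). Slc37a4, which carries glucose 6-phosphate, and Slc2a9, a urate carrier, fell 1.37-fold and 1.52-fold, with calls lost in 3 and 11 of the 20 other fits, and that of Slc2a9 was length-dependent.

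Of 9 carriers of vitamins and cofactors, 3 rose and 2 fell. The riboflavin carrier Slc52a2 had 29.05, 29.9, 26.2, 31.01 and 25.1 CPM in saline and 37.5, 53.3, 54.4, 50.01 and 55.4 CPM in LPS, and the reduced folate carrier Slc19a1 had 38.2, 55.2, 57.2, 48.2 and 53.7 CPM and 66.5, 97.03, 90.8, 88.5 and 79.2 CPM. Both rose without overlap, 1.77-fold (edgeR adjusted p = 0.000301) and 1.67-fold (edgeR adjusted p = 0.000969). Slc33a1, which brings acetyl-CoA into the endoplasmic reticulum, rose 1.41-fold, a call lost in 2 of the 20 other fits. Slc46a1, the most abundant of this group, had 587, 634, 586, 477 and 577 CPM in saline and 755, 551, 608, 205 and 508 CPM in LPS. LPS replicate 4 was far below, and replicate 1 above, every other library, and the gene was not called (log2 fold change -0.12 ± 0.33, edgeR adjusted p = 0.707).

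The falls in this group were without overlap. Slc44a2, of the choline carrier family (chromosome 9, 21320719 to 21355028), had 391, 444, 378, 437 and 288 CPM in saline and 131, 149, 142, 191 and 90.6 CPM in LPS. Every LPS library was lower, 2.76-fold on average (log2 fold change -1.47 ± 0.21, edgeR adjusted p = 2.34e-05). Slc46a3, a lysosomal relative of the folate carrier (chromosome 5, 147875897 to 147894861), had 135, 158, 155, 156 and 148 CPM in saline and 69.03, 40.02, 48.4, 24.3 and 27.2 CPM in LPS. The saline libraries were tight, all LPS libraries lay below them, and the level was 3.60-fold lower (log2 fold change -1.85 ± 0.28, edgeR adjusted p = 2.75e-05). The vitamin C carrier Slc23a2 and the choline carrier Slc44a1 were not called (edgeR adjusted p = 0.181 and 0.0607).

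The 17 members of the Slc35 family were grouped by the family's main substrate, nucleotide sugars for glycosylation in the Golgi and the endoplasmic reticulum. Of these members 5 rose and 4 fell. The group's name does not hold for every member, Slc35b1 among them. Slc35b1, which exchanges ATP and ADP across the membrane of the endoplasmic reticulum (chromosome 11, 95384856 to 95391776), had 177, 148, 149, 125 and 168 CPM in saline and 479, 394, 407, 241 and 426 CPM in LPS. LPS replicate 4 was the lowest of its group and still above every saline library. The rise was 2.54-fold (log2 fold change 1.34 ± 0.19, edgeR adjusted p = 2.90e-05). Slc35f6 (chromosome 5, 30647939 to 30659729) had 174, 146, 149, 182 and 146 CPM in saline and 354, 388, 349, 252 and 290.4 CPM in LPS, with no overlap, 2.05-fold higher (edgeR adjusted p = 5.42e-05). Slc35e1, Slc35d2 and Slc35a2, the carrier of UDP-galactose, rose 1.70-fold, 1.49-fold and 1.37-fold, all without overlap.

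The falls in the Slc35 family were under 2-fold. They were 1.59-fold for Slc35d1, 1.57-fold for Slc35a5, 1.49-fold for Slc35b4 and 1.34-fold for Slc35e2, with Slc35d1 and Slc35e2 length-dependent. Slc35c2, with 139 ± 16.6 RPKM in saline and 139 ± 15.9 in LPS, was abundant and not called (log2 fold change -0.03 ± 0.10). The CMP-sialic acid carrier Slc35a1 and the GDP-fucose carrier Slc35c1 were not called either (edgeR adjusted p = 0.113 and 0.454).

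The lysosomal peptide and histidine carriers differed in their calls. Slc15a3 (chromosome 19, 10842544 to 10857915) had 92.9, 79.1, 79.6, 76.8 and 81.3 CPM in saline and 148, 207, 167, 220.4 and 146 CPM in LPS, and every LPS library was above every saline library. It rose 2.17-fold (log2 fold change 1.12 ± 0.13, edgeR adjusted p = 2.75e-05). Its exons overlap those of Tmem132a on the opposite strand by up to 1529 bases, and the use of strand in counting was not given in the sources used here. Slc15a4, which acts beside nucleic acid sensors in endolysosomes, had 53.2 ± 7.88 and 55.2 ± 9.62 CPM and was not called (edgeR adjusted p = 0.800). Whether the 2 genes differ in their change was not tested.

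Of 4 carriers of nucleosides and nucleotides, 2 rose and 1 fell. The equilibrative carrier Slc29a2 (chromosome 19, 5019057 to 5031972) had 11.3, 14.00, 12.8, 15.2 and 7.98 CPM in saline and 19.7, 36.4, 24.3, 23.9 and 22.9 CPM in LPS. LPS replicate 2 was far above the other LPS libraries, which all lay above the saline range, and the rise was 2.08-fold (log2 fold change 1.06 ± 0.22, edgeR adjusted p = 0.000928). Slc17a9, which loads ATP into vesicles, rose 1.36-fold with a length-dependent call. Slc29a3, a lysosomal nucleoside carrier, had 591, 605, 566, 606 and 566 CPM in saline and 485, 518, 472, 314 and 460.2 CPM in LPS. All LPS libraries lay below the saline libraries, replicate 4 by far, and the level was 1.30-fold lower (edgeR adjusted p = 0.0411), a length-dependent call lost in 14 of the 20 other fits. With the length trend removed its log2 fold change of -0.38 became -0.055 (edgeR adjusted p = 0.809). Slc29a1, the equilibrative carrier of the plasma membrane, was not called (log2 fold change -0.29 ± 0.24). Slc20a1, a phosphate importer, had 46.6, 74.7, 55.1, 65.2 and 30.1 CPM in saline and 32.4, 50.9, 42.5, 46.8 and 21.5 CPM in LPS. Neither it (edgeR adjusted p = 0.128) nor Slc17a5, which exports sialic acid from lysosomes, was called. Slc20a1 was called lower without saline replicate 5.

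Among the 4 members that are not transporters, Slc9a3r1, a scaffold protein that binds ion exchangers, had 13.04, 10.9, 10.9, 13.9 and 18.2 CPM in saline and 18.7, 18.9, 18.7, 57.04 and 36.6 CPM in LPS. LPS replicates 4 and 5 stood above the other 3, which were just above the saline range, and the rise was 2.24-fold (edgeR adjusted p = 0.00743). The pseudogene Slc2a4rg-ps had 42.7, 54.7, 50.7, 60.4 and 53.1 CPM in saline and 21.1, 38.6, 33.8, 29.5 and 20.6 CPM in LPS. It fell 1.82-fold (edgeR adjusted p = 0.00143), and its counts are uncertain where reads match related genes. Exons of 48 of the 149 members overlap those of another gene in GENCODE, 41 of them on the opposite strand, Slc7a7 (with Oxa1l) and Slco2b1 among them.

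Solute carriers that go by other symbols were read from a list of 56 names, which came to 54 genes. Of these 45 were tested, 15 rose and 5 fell, with a median log2 fold change of 0.19. Over all tested genes 22.4% were called higher and 22.5% lower. The higher calls of Mpc2, Mtch2 and Mpdu1 were length-dependent (edgeR adjusted p = 0.264, 0.0614 and 0.102 with the trend removed). No lower call ended in that fit, and Mpc1 was called lower in it (edgeR adjusted p = 0.00607). Besides Ucp2, the largest rises were in Pqlc3, of the lysosomal cationic amino acid carrier family, and Mfsd12, a lysosomal cysteine importer. Mfsd12 rose 3.05-fold without overlap, from 9.45 ± 2.18 to 28.9 ± 6.17 CPM (edgeR adjusted p = 2.34e-05). Pqlc3 had 8.62, 24.2, 27.3, 69.1 and 83.2 CPM in LPS against 11.3 ± 3.38 CPM in saline. Its LPS replicate 1 was below the lowest saline library, and the rise was 3.75-fold (edgeR adjusted p = 0.0119). The largest falls were in Sv2a, a synaptic vesicle protein, Sfxn4 of the mitochondrial sideroflexins, and Xpr1, a phosphate exporter. Sv2a fell 4.56-fold, Sfxn4 1.97-fold and Xpr1 1.77-fold, all without overlap (edgeR adjusted p = 1.18e-05, 0.000326 and 0.000321).

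Promoter sequence was read for the members from RefSeq windows on GRCm38.p6, each from 250 bases before to 50 bases after a gene's start, which held 115 of the 149 members and 27025 genes in all. Short motifs known from lysosomal, amino acid and inflammatory gene control were searched on both strands. TGATGCAA, the core of the element that ATF4 binds when amino acids are short, lay in 3 of 115 members (2.61%) and in 1.03% of all genes. All 3 were among the 36 higher members with a window, and none was among the 27 lower. TCACGTGA, the E-box that TFEB binds in lysosomal genes, lay in 4 members (3.48%) and in 1.12% of all genes, of which Slc25a36 and Slc35a5 fell and Slc36a1 and Slc37a3 were not called. The core of the interferon response element (GAAA, any 2 bases, GAAA) lay in 1 member, Slc25a22 (0.87%, against 3.99% of all genes), which rose. An NF-kB core (GGG, any 3 bases, TTCC) lay in 7 (6.09%, against 6.31%). Of these 7, 1 was among the 36 higher members, 3 were among the 27 lower and 3 were not called. These counts are small and describe letters in a window, and no test was made of them. Printed are the windows of the called members that hold the ATF4 core or the TFEB E-box, the motifs with a higher share among members than among all genes. They were chosen after their calls were seen, so their directions support nothing. They run up to 30 bases after the start, 5′ to 3′ on the minus strand, which is the strand of all 5 genes, with the motif in capitals. In Slc1a4 the ATF4 core lies on the opposite strand and so reads TTGCATCA. The amino acid carriers Slc1a4 and Slc7a7 and the sugar carrier Slc50a1 hold the ATF4 core, and the last 2 sequences hold the E-box.
Slc1a4, chr11:20332684-20332963, GRCm38.p6, minus strand: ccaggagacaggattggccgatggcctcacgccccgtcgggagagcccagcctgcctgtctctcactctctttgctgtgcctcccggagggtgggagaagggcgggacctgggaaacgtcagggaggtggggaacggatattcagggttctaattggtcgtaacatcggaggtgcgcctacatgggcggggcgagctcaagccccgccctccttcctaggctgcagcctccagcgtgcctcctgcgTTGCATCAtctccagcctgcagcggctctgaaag
Slc7a7, chr14:54417673-54417952, GRCm38.p6, minus strand: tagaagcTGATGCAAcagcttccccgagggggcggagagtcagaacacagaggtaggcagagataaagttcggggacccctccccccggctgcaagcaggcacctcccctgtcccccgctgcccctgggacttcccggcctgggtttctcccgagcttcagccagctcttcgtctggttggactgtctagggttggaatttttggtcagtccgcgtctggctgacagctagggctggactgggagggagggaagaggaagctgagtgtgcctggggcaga
Slc50a1, chr3:89270541-89270820, GRCm38.p6, minus strand: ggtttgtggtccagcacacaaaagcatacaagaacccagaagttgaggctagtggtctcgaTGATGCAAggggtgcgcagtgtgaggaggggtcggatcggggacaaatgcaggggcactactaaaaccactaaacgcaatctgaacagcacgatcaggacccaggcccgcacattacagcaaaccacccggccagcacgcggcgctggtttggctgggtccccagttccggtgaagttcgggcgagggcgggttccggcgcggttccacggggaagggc
Slc25a36, chr9:97111012-97111291, GRCm38.p6, minus strand: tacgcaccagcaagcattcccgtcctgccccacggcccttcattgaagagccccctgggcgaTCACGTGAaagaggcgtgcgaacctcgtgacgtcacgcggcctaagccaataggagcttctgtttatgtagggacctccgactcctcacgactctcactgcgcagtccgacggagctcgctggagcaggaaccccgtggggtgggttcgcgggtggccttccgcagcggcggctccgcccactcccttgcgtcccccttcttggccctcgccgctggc
Slc35a5, chr16:45158644-45158923, GRCm38.p6, minus strand: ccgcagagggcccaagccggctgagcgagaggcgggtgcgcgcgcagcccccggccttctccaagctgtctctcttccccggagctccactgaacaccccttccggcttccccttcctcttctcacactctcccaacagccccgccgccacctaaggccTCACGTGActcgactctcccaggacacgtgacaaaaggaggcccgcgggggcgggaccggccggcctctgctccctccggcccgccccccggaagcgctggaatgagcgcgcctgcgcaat

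The ATF4 core lay 4 bases before the start of Slc1a4, 243 before that of Slc7a7 and 189 before that of Slc50a1, counted from its first base in the direction of transcription. The site of Slc1a4 thus spans the start. For Slc7a7 a further start listed by RefSeq lies within the same site, 1 base after its first base. The E-box lay 188 bases before the start of Slc25a36 and 91 before that of Slc35a5. Beside these sequences stand rises of 2.24-fold for Slc1a4, 1.33-fold for Slc7a7 and 1.97-fold for Slc50a1, and falls of 1.61-fold for Slc25a36 and 1.57-fold for Slc35a5.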

How the data were processed

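Per the labels' protocols, cells with high green fluorescence were sorted from perfused, homogenised cortex after a Percoll gradient, a SMARTer ultra low input kit amplified 5 ng of total RNA, and Ovation ultra low libraries were made from 6 ng of amplified product. No molecular identifiers are named, so statements on counts cover counting error only. The authors deposited raw counts per gene, and the submitters' processing notes name featureCounts and GRCm38 (mm10). The aligner, versions, annotation and use of strand were not given in the sources used here, which leaves counts of pseudogenes, paralogs and overlapping genes uncertain. The authors also deposited RPKM values, each a count multiplied by a library's factor and a gene's factor, which were used for levels and relative gene length only. How the library factors, named CRAC in the file, were set was not given in the sources used here. A second RPKM table was not used here. The last row of the count table, without a gene, was left out, and 15 symbols turned into dates were restored from the gene ID.

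The test was edgeR 4.0.16 in R 4.3.3 on the counts (TMM factors, filterByExpr, robust quasi-likelihood F test, Benjamini-Hochberg adjustment over 13793 genes at 0.05), 5 LPS against 5 saline mice with no covariate. Standard errors came from log2 CPM with a prior count of 2. Summaries used Python 3.11.15 with scipy 1.17.1. Coordinates and promoters came from RefSeq GRCm38.p6, matched by gene ID for 149 of 149 members, and exon overlaps from GENCODE. In counts simulated over 13357 genes, 64 were changed 1.5-fold, 65 were changed 2-fold and 66 were changed 4-fold. Of these edgeR recovered 14.1%, 49.2% and 89.4%, and 9.09% of calls were false. In the data 44.9% of tested genes were called, far more than were changed in the simulation. The changed genes were also drawn at any count that passed the filter, so these shares need not hold for the members. Replicates always differed by more than sampling noise (chi-square per degree of freedom at least 14.6).

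The members, substrate groups and lists were chosen with earlier results of these data known. Values in every library were given, as the rule for named genes, to up to 3 leading rises and 3 leading falls of each substrate group among called members with at least 2-fold change and no overlap, and to the member with the highest RPKM; other members are named by choice after their values were seen, and some counted members are not reported by name here. Alternatives were DESeq2 1.42.0, limma-voom (limma 3.58.1), RLE and upper-quartile factors, library size only, no filter, a filter of 1 CPM in 5 libraries, protein-coding genes only, a fit without each library's trend over gene length, a term for ranges of mouse numbers, each mouse left out, and other minimum counts for members.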

Additional observations from a re-analysis of the deposited data

Results flagged for a closer look

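Within groups of 5 libraries, 5 values lay farther from their neighbours than Dixon's 95% critical value of 0.710 allows. There were 70 groups, 2 for each of 35 genes, and chance alone gives about 1 in 20. In LPS replicate 2, Slc7a1 had 53.2 CPM, Slc29a2 had 36.4 CPM and Slc5a3 had 8.83 CPM, each above the other LPS libraries. In LPS replicate 4, Slc29a3 had 314 CPM, below the other LPS libraries. In saline replicate 1, Slc15a3 had 92.9 CPM, above the other saline libraries.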

How the results depend on the processing

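Over 20 other fits, the number of members called higher was 39 to 55 and the number called lower 25 to 42, against 45 and 35 as reported. The ends of both ranges came from library size only (39 higher, 42 lower) and from removal of the gene-length trend (55 higher, 25 lower). With each mouse left out in turn the counts were 41 to 47 higher and 30 to 37 lower, and without LPS replicate 4 they were 44 and 37. DESeq2 gave 47 and 35, and limma-voom 44 and 37. With a minimum of 500 counts there were 173 members, 48 higher and 43 lower, with 2000 counts 120 members, 40 and 27, and with 500 counts in each group 140 members, 41 and 31. The median log2 fold change of the members, 0.014 as reported, was 0.15 with the gene-length trend removed (0.016 over all genes) and -0.076 with library size only (-0.085 over all genes). The difference in mean total count, LPS minus saline, was 204727 counts; with single mice left out it ran from -271948 (without saline replicate 2) to 652333, and it also turned negative without saline replicate 3 (-180973) and without LPS replicate 4 (-206123). Of 699 values of the 35 named members under other settings, none was called in the opposite direction. Of these values, 681 stayed called or not called as reported, 16 lost the call and 2 gained it. Of these 16, 14 were the fits of Slc29a3. Most named members were chosen by their call in the reported fit, and the other fits reused its libraries. Such agreement was thus largely set by the choice. Among all 80 called members, 51 kept the call in each of the 20 other fits. No paired analysis was possible because the labels give the groups no shared replicate numbers, and the mouse numbers differ between groups. A term for ranges of mouse numbers, which the sources used here do not call a batch, gave 45 higher and 31 lower. A member without a call may still differ between the groups. The simulated recovery of 14.1% at 1.5-fold came from a setting with few changed genes and does not measure this for the members.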

Other observations

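The coefficient of variation of CPM over 5 mice was higher in LPS than in saline for 103 of 149 members, with medians of 20.8% and 15.2%. The same share over all tested genes was not computed, so whether solute carriers differ from other genes in this was not tested. Of the 69 members without a call, 14 had an unadjusted edgeR p under 0.05, and their group's log2 fold changes ran from -0.52 to 0.87. The highest of these was Slc24a3, a potassium-dependent sodium and calcium exchanger, which had 67.1 CPM in LPS replicate 4 and 14.5 to 35.3 CPM in the other LPS libraries, against 12.7 to 23.2 CPM in saline.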
